A study of Mus musculus with 3 samples.

Results

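The genes described here are the interferon response genes, a set of 36 named genes that were looked up on the array through the RefSeq transcript each probe targets. Probes were found for 34 of them, out of 22908 genes named on the array. No probe was matched to Mx1 or Mx2, which are not analysed here. The set holds 28 measured genes classed as type I interferon response genes, 5 GTPases known for their induction by interferon gamma (Gbp2, Gbp3, Igtp, Irgm1 and Iigp1), and the peptide transporter gene Tap1. All 34 were well above background on all 3 arrays.

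Total RNA came from splenic tumours of 3 male mice, 1 of p53+/− genotype and 2 of the genotype LSD1 × p53+/−, numbered 2 and 3 in the labels. They are named below as the p53 tumour and as LSD1 tumours 2 and 3. Every animal carried p53 haploinsufficiency, and cells were taken at 10 weeks of age without treatment, although the protocol speaks of isolated splenic cells and the tissue label of tumour. What the LSD1 element is, which promoter or cell type drives it, and whether a number stands for a mouse or a line are not given in the sources used here. Each tumour was hybridised to 1 array, so a value for 1 tumour has no replicate error. The spread behind the p-values is that between LSD1 tumours 2 and 3, moderated over all tested genes. Levels are given as the scaled signal, which is the spot's processed intensity divided by the 75th percentile of its array. A probe's levels are compared between tumours and never with another probe's, and 3 levels in a row are in the order p53 tumour, then LSD1 tumours 2 and 3. The number of arrays limits the precision.

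Interferons are secreted proteins that warn cells of infection. Type I interferons act through the receptor chains Ifnar1 and Ifnar2 and the kinases Jak1 and Tyk2, which lead to a complex containing Stat2 and Irf9 that binds a promoter element called the ISRE. Interferon gamma, made mainly by activated T cells and NK cells, acts through Ifngr1 and Ifngr2 with Jak1 and Jak2 and leads to the binding of an element called GAS. The targets overlap: many genes respond to both kinds of interferon, and the GTPases of the GBP and IRG families, which attack the vacuoles of intracellular parasites and bacteria, respond most strongly to interferon gamma. In the spleen, plasmacytoid dendritic cells are a known source of type I interferon.

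The promoters of 5 members are printed to show the elements that type I genes and gamma GTPases share. Sequences are from RefSeq on build GRCm38.p6, 250 bases up to the gene's start, written on the gene's own strand from 5′ to 3′. Capitals mark matches to the ISRE core, taken as 2 copies of GAAA with any 2 bases between them (2 copies of TTTC on the other strand), or to the GAS core TTCNNNGAA, which reads the same on both strands.
Isg15, chr4:156200819-156201068, minus strand: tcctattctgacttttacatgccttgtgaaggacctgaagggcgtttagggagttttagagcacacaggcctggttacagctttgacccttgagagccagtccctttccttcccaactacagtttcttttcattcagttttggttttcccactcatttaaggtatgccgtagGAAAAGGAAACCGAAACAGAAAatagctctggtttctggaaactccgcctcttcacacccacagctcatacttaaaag
Oas1a, chr5:120907526-120907775, minus strand: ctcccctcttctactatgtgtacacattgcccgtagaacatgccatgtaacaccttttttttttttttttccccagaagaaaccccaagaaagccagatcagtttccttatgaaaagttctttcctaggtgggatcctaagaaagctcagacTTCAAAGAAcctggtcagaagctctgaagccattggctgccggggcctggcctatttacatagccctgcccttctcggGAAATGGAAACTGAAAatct
Gbp2, chr3:142620413-142620662, plus strand: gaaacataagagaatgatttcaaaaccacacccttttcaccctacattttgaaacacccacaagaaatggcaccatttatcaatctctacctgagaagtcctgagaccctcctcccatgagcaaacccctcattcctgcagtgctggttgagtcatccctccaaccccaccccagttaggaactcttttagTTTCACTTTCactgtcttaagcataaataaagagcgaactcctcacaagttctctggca
Igtp, chr11:58199306-58199555, plus strand: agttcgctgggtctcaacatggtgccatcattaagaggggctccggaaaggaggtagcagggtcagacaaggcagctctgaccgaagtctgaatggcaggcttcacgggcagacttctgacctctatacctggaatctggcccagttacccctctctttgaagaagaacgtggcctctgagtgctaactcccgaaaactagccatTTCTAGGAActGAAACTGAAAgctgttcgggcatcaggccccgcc
Irgm1, chr11:48871421-48871670, minus strand: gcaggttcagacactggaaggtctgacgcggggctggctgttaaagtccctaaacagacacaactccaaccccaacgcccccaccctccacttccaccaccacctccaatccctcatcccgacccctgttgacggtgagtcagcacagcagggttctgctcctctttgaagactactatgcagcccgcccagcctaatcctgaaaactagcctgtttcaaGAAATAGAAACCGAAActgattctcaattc

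Isg15 held 3 overlapping ISRE core matches between bases -78 and -57 from its start. In Oas1a 2 overlapping matches lay between bases -20 and -5, with a GAS core match at bases -98 to -90. Gbp2 held 1 ISRE core match at bases -59 to -50. Igtp held a GAS core match at bases -45 to -37 and an ISRE core match just after it, at bases -34 to -25. Irgm1 held 2 overlapping ISRE core matches between bases -30 and -15.

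Promoter windows of 300 bases, running to 50 bases past the start, were on hand for 27 of the 36 genes. An ISRE core stood in 17 of these 27 genes and a GAS core in 7. Among all 27025 genes with a window, 3.99% held an ISRE core and 9.55% a GAS core. By class, an ISRE core stood in 13 of 22 type I genes and in 4 of 4 gamma GTPases, and a GAS core in 6 of 22 and 1 of 4. Of 7 further GTPases of the same families, which are not members, 6 held an ISRE core and 5 a GAS core. The 2 kinds of match overlapped in Bst2 and Ifitm3. A match describes letters in the window and is no evidence of binding, and a window without one says nothing about the gene's regulation. Type I genes with an ISRE core differed between LSD1 tumours 3 and 2 by a median of 0.82 log2 units (13 genes, range 0.02 to 1.76). Those without one differed by a median of 1.14 (9 genes, range -0.17 to 1.85), so the ranges overlapped.

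**Figure D1:**
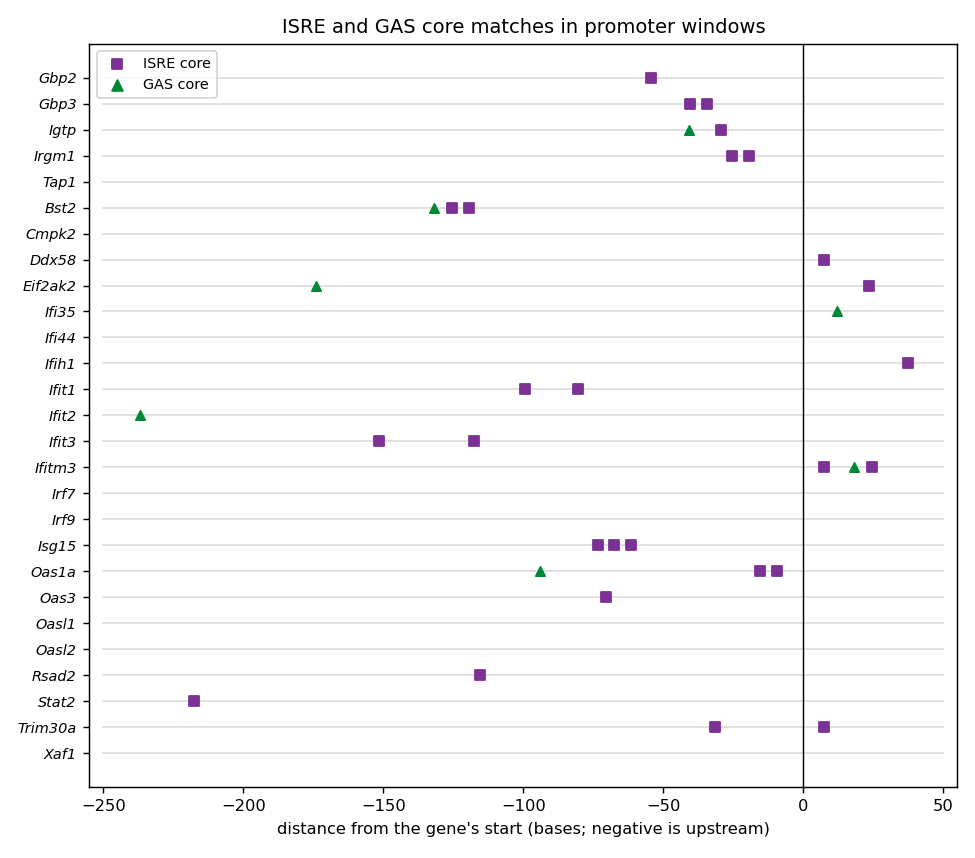
Positions of ISRE core (squares) and GAS core (triangles) matches in the promoter windows of the 27 members that have one; the x axis is the distance from the gene's start in bases, and genes with 2 windows show the matches of both on 1 line. All 4 gamma GTPases at the top carry an ISRE core match within 60 bases upstream of the start.

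The arrays were of like quality. Between 51.5% and 55.6% of non-control spots were well above background and none was saturated. Slide 1 (scan 1) held the p53 tumour together with LSD1 tumour 3, and slide 2 (scan 2) held LSD1 tumour 2. A difference that involves LSD1 tumour 2 therefore cannot be told apart from one between slides, and the comparison of LSD1 tumour 3 with the p53 tumour lies within slide 1. Kdm1a, which encodes LSD1, had scaled signals of 4.20, 6.57 and 4.91 in the p53 tumour and LSD1 tumours 2 and 3, and Trp53 had 1.13, 0.748 and 0.916. Spleen markers were present: Spic of red pulp macrophages and Klf1 of erythroid cells were well above background on every array.

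Most interferon response genes were highest in LSD1 tumour 3, and more than not were lowest in LSD1 tumour 2. Of the 34 genes, 33 were higher in LSD1 tumour 3 than in LSD1 tumour 2, where 55.8% of all 15240 tested genes were. The count was 32 with quantile normalization, with the percentile over probes above background on all arrays and in the authors' value table, in which Oas1a turned to -0.21, -0.13 and -0.13 log2 units. At least 2-fold apart were 17 of 34 (background 25.1%): all 17 were higher in LSD1 tumour 3, against a background of 14%, and none was lower, against 11.1%. Relative to the p53 tumour, 17 of 34 were at least 2-fold higher in LSD1 tumour 3 (background 15.2%) and none 2-fold lower (background 11.5%). In LSD1 tumour 2, 1 of 34 was at least 2-fold above the p53 tumour (background 11.7%) and 3 were at least 2-fold below it (background 11.5%). The count of 3 was near the background share, which was 6.79% with normexp for the same count. By any amount, 23 of 34 were lower in LSD1 tumour 2 (background 47%) and 11 higher (background 53%), and 30 were higher in LSD1 tumour 3 (background 58.1%). In bulk tissue, fewer cells of a type and less RNA per cell cannot be told apart.

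The median difference of the 34 genes from the p53 tumour was -0.28 log2 units in LSD1 tumour 2 and 0.96 in LSD1 tumour 3, where the medians of all tested genes were 0.05 and 0.16. In all, 20 of the 34 genes were lowest in LSD1 tumour 2 and highest in LSD1 tumour 3, an order that 19.3% of all tested genes had. With LSD1 tumour 3 at least 2-fold over LSD1 tumour 2, 13 of the 34 had it (background 8.97%). The count at least 2-fold above the p53 tumour depended on the scaling. It was 12 with quantile normalization (background 12.1%) and 9 in the authors' value table (background 7.93%), whose factors moved the median of all genes to -0.16 and -0.20. Relative to all genes, the members' medians were -0.34 and 0.80, which a factor per array cannot change, and -0.35 and 0.58 with quantile normalization.

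The genotype comparison, both LSD1 tumours against the p53 tumour, called none of the 34 genes with limma at an adjusted p of 0.05 (percent called over all genes: 0%). Their adjusted p-values lay between 0.967 and 0.993, and none had an unadjusted p under 0.05, where 568 of 15240 genes did. With 3 arrays the fit kept 1 residual degree of freedom, and the p53 tumour, being alone in its group, was taken to vary as the LSD1 tumours do. Oas1a was the only member at least 2-fold higher in both LSD1 tumours (background 3.48%), and none was 2-fold lower in both (background 5.38%).

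**Figure D2:**
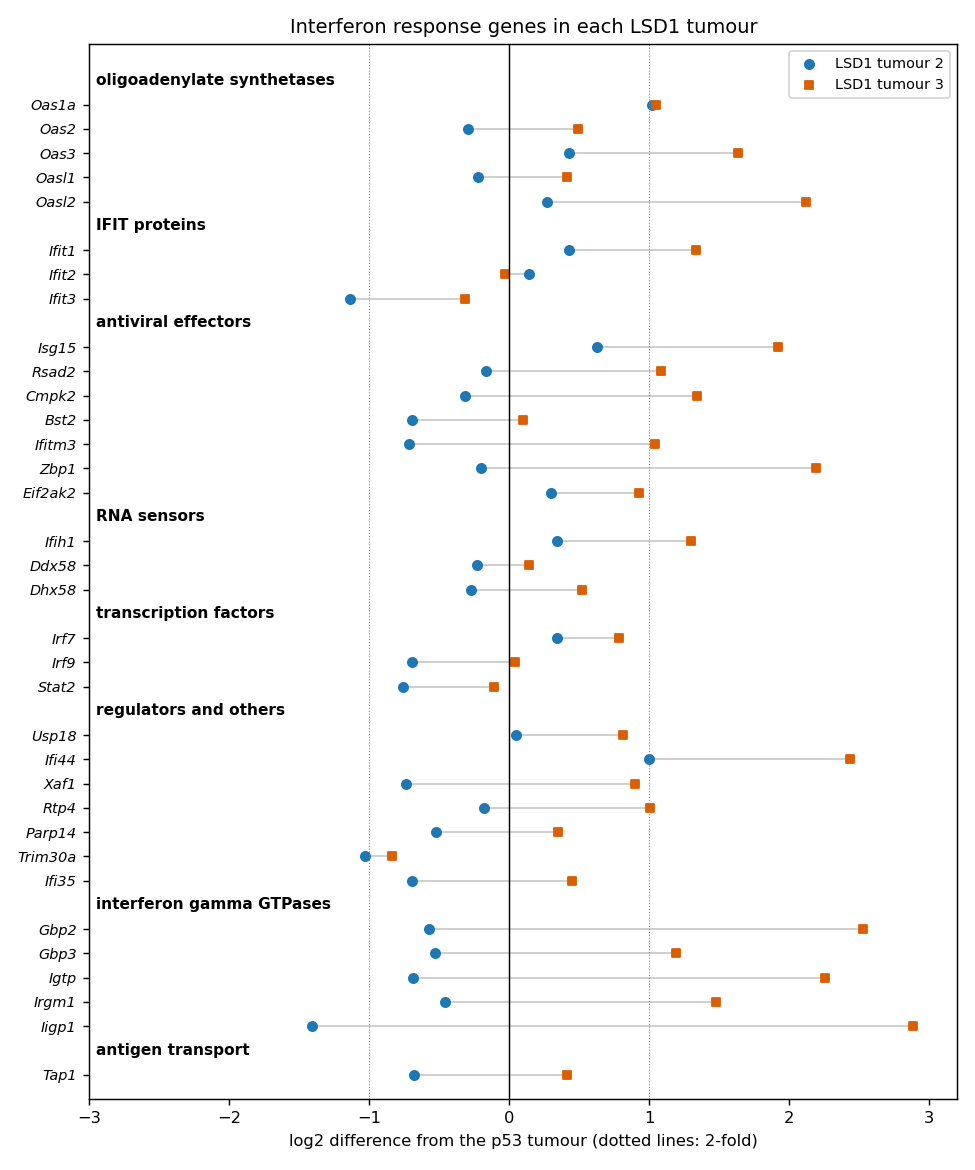
Log2 difference of each of the 34 members from the p53 tumour in LSD1 tumour 2 (circles) and LSD1 tumour 3 (squares), 1 array per tumour, grouped by role; dotted lines mark 2-fold. The 5 gamma GTPases lie left of 0 in LSD1 tumour 2 and right of the 2-fold line in LSD1 tumour 3.

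The interferon gamma GTPases stood higher in LSD1 tumour 3 than the other classes of members did, by their medians. All 5 were lower in LSD1 tumour 2 relative to the p53 tumour and at least 2-fold higher in LSD1 tumour 3 than in either of the others. Iigp1, an effector GTPase of the IRG family that coats parasite vacuoles, had scaled signals of 5.64 in the p53 tumour and of 2.12 and 41.7 in LSD1 tumours 2 and 3. Relative to the p53 tumour this was 2.66-fold less in LSD1 tumour 2 but 7.38-fold more in LSD1 tumour 3. The LSD1 tumours were 19.6-fold apart, the widest gap among the 34 genes. The genotype difference was 0.74 ± 2.11 log2 units (SE; limma, adjusted p = 0.984), smaller than its error, with the LSD1 tumours on opposite sides of the p53 tumour.

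Gbp2, a guanylate-binding protein, had scaled signals of 3.67, 2.46 and 21.2 in the p53 tumour and LSD1 tumours 2 and 3. LSD1 tumour 3 exceeded the p53 tumour by 5.76-fold and LSD1 tumour 2 by 8.60-fold. Igtp, a regulatory IRG protein on host membranes, had scaled signals of 9.77, 6.07 and 46.6, so that LSD1 tumour 3 was 4.77-fold above the p53 tumour. In each of these genes LSD1 tumour 3 alone was high and the other tumours lay within 2-fold of each other.

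Irgm1, a second regulatory IRG protein with a part in autophagy, had scaled signals of 5.07, 3.69 and 14.1. Its other 2 probes gave like values, with LSD1 tumour 3 above the p53 tumour by 1.51 and 1.53 log2 units where the first gave 1.48. Gbp3 had scaled signals of 4.42, 3.06 and 10.1, the narrowest range of the 5. Its 2.28-fold excess over the p53 tumour was under 2-fold in 3 settings, at 0.85 log2 units after quantile normalization, 0.96 with the other percentile and 0.82 in the deposited value table. The other 4 GTPases were above 2-fold in each of these.

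Across the 5 GTPases the median difference between LSD1 tumours 3 and 2 was 2.94 log2 units (7.68-fold, range 1.72 to 4.30). Across the 28 type I genes it was 0.85 (1.80-fold, range -0.17 to 2.39), and across all tested genes 0.10. The classes overlapped: 3 type I genes, Zbp1, Oasl2 and Ifitm3, differed by at least as much as Gbp3. The gap between the class medians was -2.09 log2 units, type I less GTPases, and was -2.10 with normexp, -1.94 with quantile normalization and -2.08 with the mean over probes. The other settings cannot move it, since they multiply each array by 1 factor or leave the members as they are. Within slide 1 the medians over the p53 tumour were 2.25 for the GTPases and 0.85 for type I genes, and 8 type I genes were at or above Gbp3 there. Class medians are descriptions with no test.

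**Figure D3:**
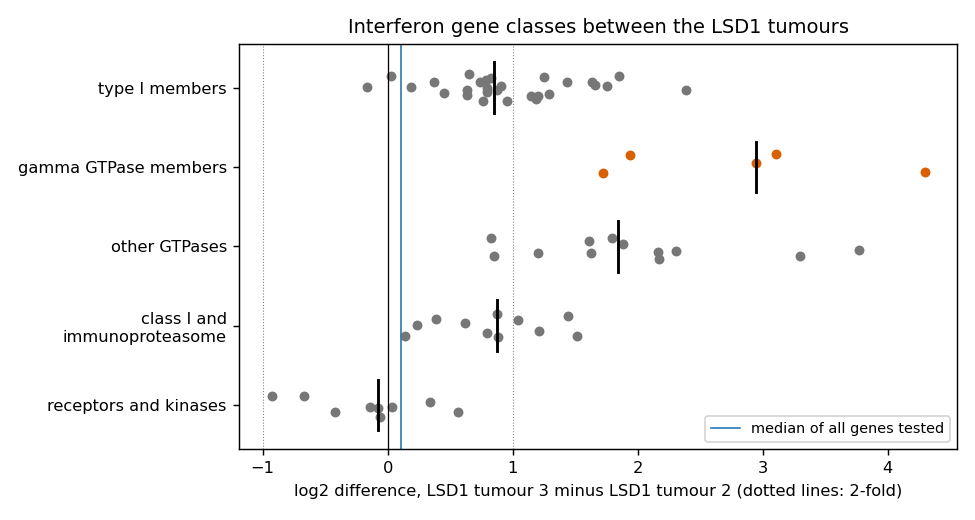
Log2 difference between LSD1 tumour 3 and LSD1 tumour 2 for single genes (points) by class, with class medians as black bars and the median of all 15240 tested genes as a blue line. The 5 GTPase members lie between 1.72 and 4.30, and receptors and kinases lie around 0.

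The other genes of the pathway were taken from lists, and limma called 0 genes in every list. The shares of all tested genes to set beside the counts between the LSD1 tumours are 55.8% for higher in LSD1 tumour 3, 14% for at least 2-fold higher and 11.1% for at least 2-fold lower. Further GTPases of the same families came from a list of 14, of which 12 were measured. Relative to the p53 tumour, LSD1 tumour 2 had 6 of the 12 at least 2-fold lower (background 11.5%), while LSD1 tumour 3 had 7 at least 2-fold higher (background 15.2%). All 12 were higher in LSD1 tumour 3 than in LSD1 tumour 2, 10 of them by at least 2-fold, with a median of 1.84 log2 units. Gbp7 had scaled signals of 0.802, 1.003 and 3.05 in the p53 tumour and LSD1 tumours 2 and 3, and Gbp2b had 0.134, 0.192 and 0.346. Gvin1, a very large inducible GTPase, had scaled signals of 12.7, 4.25 and 15.7, so that LSD1 tumour 2 was low and the other tumours were close. Gbp6 and Tgtp2, chosen after their values were seen, had the widest gaps between the LSD1 tumours in the list, 13.6-fold and 9.84-fold. Tgtp2 has a near-identical copy, Tgtp1, that its probe may also detect.

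Among the 3 transcription factors that relay the type I signal, the brightest probes differed by less than 2-fold. Irf7, which amplifies type I interferon production, had scaled signals of 27.6, 34.9 and 47.6, and its second probe kept that order with a wider difference, 1.07 log2 units between LSD1 tumour 3 and the p53 tumour. Irf9 had scaled signals of 8.52, 5.25 and 8.75, and Stat2 5.40, 3.19 and 5.01. LSD1 tumour 2 was therefore the low tumour for both of these parts of the ISRE-binding complex, and LSD1 tumour 3 lay close to the p53 tumour.

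Of 3 cytoplasmic RNA sensors, 1 was at least 2-fold above the p53 tumour in LSD1 tumour 3 (background 15.2%). Ifih1, which encodes MDA5 and detects long double-stranded RNA, had scaled signals of 0.847, 1.07 and 2.08, and its excess in LSD1 tumour 3 was 2.45-fold (1.29 log2 units, but 0.93 in the authors' value table). Ddx58, which encodes RIG-I, had scaled signals of 4.99, 4.24 and 5.49. Of its 3 other probes, the 2 that were above background on all arrays were lower than the p53 tumour in both LSD1 tumours, with -0.63 and -0.68 log2 units in LSD1 tumour 3, so the probes disagreed in direction. Dhx58, a related helicase that modulates both sensors, had scaled signals of 1.11, 0.920 and 1.59.

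The oligoadenylate synthetases make a second messenger that switches on the nuclease RNase L. Oas1a had scaled signals of 6.92 in the p53 tumour and of 14.0 and 14.3 in LSD1 tumours 2 and 3. The LSD1 tumours lay close together, 2.03-fold and 2.06-fold above the p53 tumour (1.03 ± 0.48 log2 units, SE; limma, adjusted p = 0.967). Both excesses were under 2-fold in 4 other settings, at the least 0.81 and 0.64 log2 units. Oas1g, a close relative taken from a list of further genes, was 3.24-fold and 2.80-fold above the p53 tumour, and probes of such near-identical copies may detect each other's RNA.

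The other synthetases followed LSD1 tumour 3. Oasl2, a synthetase-like protein with ubiquitin-like domains, had scaled signals of 2.17, 2.61 and 9.43. Oas3 had scaled signals of 0.452, 0.607 and 1.40, also highest in LSD1 tumour 3. Oas2 and Oasl1 stayed within 2-fold across the tumours, at 2.57, 2.10 and 3.61 and at 3.98, 3.41 and 5.29.

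The IFIT proteins, which bind viral RNA and block its translation, did not share a direction. Ifit1 had scaled signals of 0.508, 0.683 and 1.28 and was highest in LSD1 tumour 3. Ifit2 had scaled signals of 0.362, 0.399 and 0.355, the only member not higher in LSD1 tumour 3 than in LSD1 tumour 2. Ifit3 had scaled signals of 1.85, 0.838 and 1.48, and LSD1 tumour 2 was 2.20-fold below the p53 tumour. Their differences from the p53 tumour in LSD1 tumour 3 ran from -0.32 to 1.33 log2 units.

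Among 7 measured antiviral effectors, all were higher in LSD1 tumour 3 than in LSD1 tumour 2 (background 55.8%), 5 of them by at least 2-fold (background 14%). Isg15, a ubiquitin-like modifier that is among the most strongly induced interferon targets, had scaled signals of 35.0, 54.1 and 133. Both LSD1 tumours were above the p53 tumour, by 1.54-fold and 3.79-fold (1.27 ± 0.78 log2 units, SE; limma, adjusted p = 0.967). Zbp1, a sensor of Z-form nucleic acids that triggers necroptosis, had scaled signals of 1.94, 1.69 and 8.84. Its second probe kept LSD1 tumour 3 highest but with a smaller excess over the p53 tumour, 1.07 in place of 2.19 log2 units.

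Rsad2, or viperin, and its neighbour Cmpk2, a nucleotide kinase that supplies its substrate, had the same order of tumours. Rsad2 had scaled signals of 9.54, 8.48 and 20.2, and Cmpk2 2.27, 1.82 and 5.74. Ifitm3, a membrane protein that hinders viral fusion, had scaled signals of 12.1, 7.40 and 25.0. By these probes LSD1 tumour 3 was at least 2-fold above both other tumours, but the excess over the p53 tumour depended on the probe and the scaling. The second Rsad2 probe gave 0.67 log2 units over the p53 tumour and 0.93 over LSD1 tumour 2. With quantile normalization the excess over the p53 tumour was 0.62 log2 units for Rsad2 and 0.57 for Ifitm3, and Rsad2 was 0.98 over LSD1 tumour 2. In the authors' value table it was 0.72 for Rsad2, 0.68 for Ifitm3 and 0.97 for Cmpk2. Bst2, or tetherin, which is also a surface marker of plasmacytoid dendritic cells, had scaled signals of 11.5, 7.09 and 12.3, with LSD1 tumour 2 low. Eif2ak2, the RNA-activated kinase PKR, had scaled signals of 0.958, 1.18 and 1.82.

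**Figure D4:**
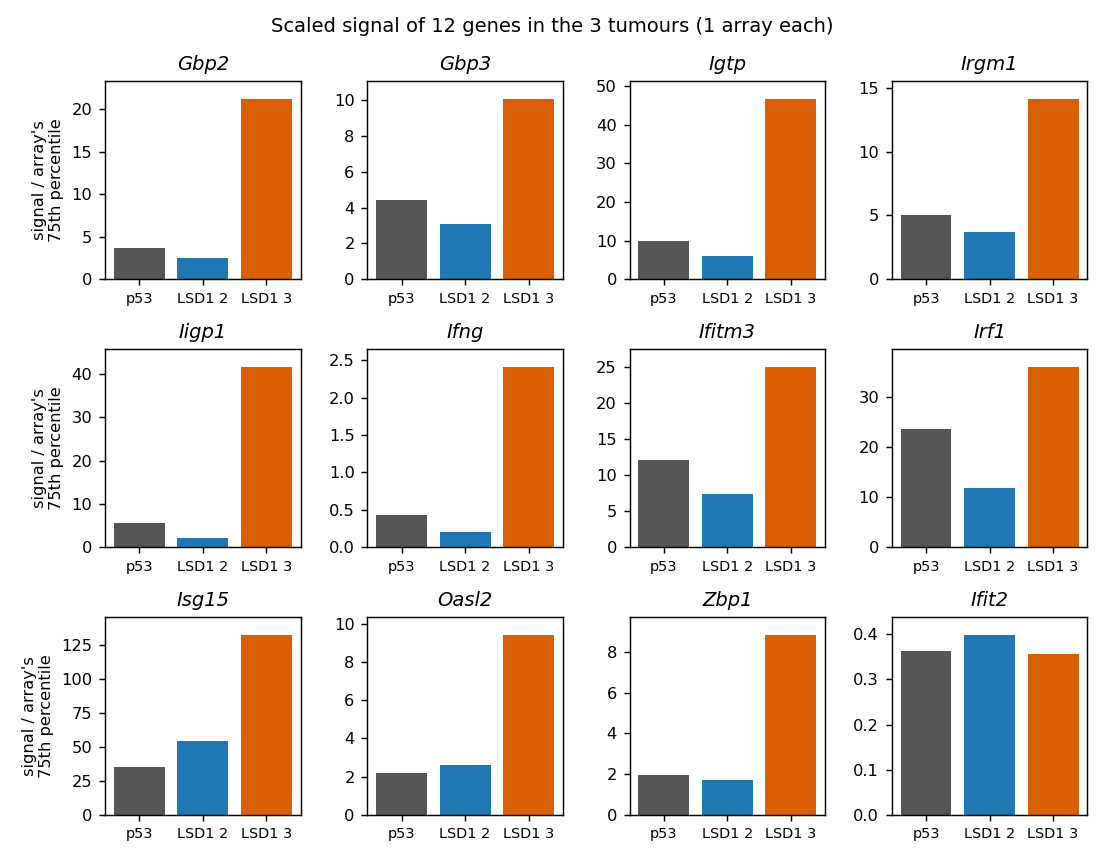
Scaled signal (signal divided by the array's 75th percentile, axis from 0) of 12 genes in the p53 tumour and LSD1 tumours 2 and 3, 1 array and 1 bar per tumour; each panel has its own axis. Ifng and the 5 GTPases are lowest in LSD1 tumour 2 and highest in LSD1 tumour 3, while Ifit2 is nearly level.

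The remaining type I genes include feedback regulators. Usp18, which removes Isg15 from proteins and dampens signalling at the type I receptor, had scaled signals of 1.73, 1.79 and 3.05. Ifi44 had scaled signals of 0.259, 0.517 and 1.40, and with 5.40-fold it had the largest excess over the p53 tumour among type I genes in LSD1 tumour 3. In LSD1 tumour 2 its excess of 0.996 log2 units fell just short of 2-fold. Rtp4, at 6.51, 5.74 and 13.0, was the member just past the 2-fold line in LSD1 tumour 3, at 1.003 log2 units.

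Xaf1, a promoter of apoptosis, had scaled signals of 2.02, 1.21 and 3.75, and Ifi35 18.3, 11.3 and 25.0. Parp14, an ADP-ribosyltransferase, had scaled signals of 6.39, 4.44 and 8.12, and its second probe put LSD1 tumour 3 below the p53 tumour by 0.31 log2 units. Trim30a, which restrains Toll-like receptor signalling, was lower than the p53 tumour in both LSD1 tumours, as were Ifit3 and Stat2. Its scaled signals were 3.97, 1.94 and 2.22 (-0.93 ± 0.49 log2 units, SE; limma, adjusted p = 0.967). It passed 2-fold lower in both with quantile normalization, with the other percentile and in the authors' value table.

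Tap1, the peptide transporter of MHC class I loading, had scaled signals of 9.86, 6.14 and 13.1. Of 11 other measured class I and immunoproteasome genes all were higher in LSD1 tumour 3 than in LSD1 tumour 2, 4 by at least 2-fold, and none was 2-fold above the p53 tumour. Nlrc5, the activator of class I genes, had scaled signals of 6.09, 2.73 and 7.78. H2-K1, a class I heavy chain, had scaled signals of 192, 117 and 202, and Tap2, the partner of Tap1, had 20.8, 16.1 and 17.7. H2-K1 is one of many similar class I genes that a probe may not tell apart.

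Ifng, the gene for interferon gamma, had scaled signals of 0.428 in the p53 tumour and of 0.207 and 2.41 in LSD1 tumours 2 and 3. LSD1 tumour 2 was therefore 2.07-fold below the p53 tumour, LSD1 tumour 3 was 5.64-fold above it, and the 2 were 11.7-fold apart. The genotype difference had an adjusted p of 0.983 (limma). The order of the tumours was that of the 5 GTPases. Of the 20 listed interferon genes 17 had a probe, 8 passed the background filter on at least 1 array and 4 on all 3. Ifnb1 was well above background in LSD1 tumour 2 alone, at least 1.32-fold over the p53 tumour. Ifna1 was above background in that tumour alone too, and Ifna5 and Ifnab in it and the p53 tumour, with scaled signals between 0.0562 and 0.0995. No listed ligand other than Ifng was at least 2-fold above the p53 tumour in LSD1 tumour 3.

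Receptors and kinases did not share the excess in LSD1 tumour 3. Of 9 genes, 8 were lower than in the p53 tumour in both LSD1 tumours, as were 4234 of all 15240 tested genes. None of the 9 was 2-fold apart between the LSD1 tumours (background 25.1%). Ifngr1 had scaled signals of 13.6, 6.98 and 6.61, nearly level between the LSD1 tumours, and Ifngr2 had 3.85, 3.09 and 1.95. Ifnar1 had scaled signals of 8.66, 7.14 and 6.45, and Ifnar2 3.94, 3.05 and 3.86. Ifnlr1 and Il10rb, the chains of the type III receptor, had scaled signals of 0.241, 0.138 and 0.0729 and of 8.96, 4.38 and 6.46. Jak1 had scaled signals of 14.2, 11.9 and 8.88, Tyk2 1.27, 1.03 and 0.984, and Jak2 2.10, 2.17 and 2.22.

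Other factors of the pathway were all higher in LSD1 tumour 3 than in LSD1 tumour 2, 8 of 8 genes, 5 of them by at least 2-fold. All 8 were below the p53 tumour in LSD1 tumour 2 (background 47%). In LSD1 tumour 3, 4 of the 8 were above the p53 tumour (background 58.1%), 1 by at least 2-fold (background 15.2%), with a median of -0.11 log2 units. Irf1, an early target of interferon gamma, had scaled signals of 23.6, 11.8 and 36.1. The fold between the LSD1 tumours was 3.07 for Irf1. Irf3, which switches on Ifnb1 after RNA or DNA sensing, had scaled signals of 20.1, 9.91 and 15.2. Irf5 and Irf8, factors of myeloid and B cells, were highest in the p53 tumour, at 4.11, 1.03 and 2.71 and at 29.5, 9.28 and 16.7. Prdm1 had scaled signals of 0.807, 0.292 and 0.838, with LSD1 tumour 2 low.

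Sensors and adaptors showed no common direction, with 6 of 14 higher in LSD1 tumour 3 than in LSD1 tumour 2. Cgas, the DNA sensor that signals through Sting1, was above the p53 tumour in both LSD1 tumours, at 1.10, 4.56 and 2.81. Tlr8 was above background in LSD1 tumour 2 alone, and Tlr3, the endosomal receptor of double-stranded RNA, in the p53 tumour alone. Among negative regulators, Socs1, a target and brake of interferon gamma signalling, had scaled signals of 1.15, 1.18 and 2.92. Samhd1 had scaled signals of 26.8, 11.4 and 22.2, Trex1 10.8, 4.77 and 12.9, and Trim24 1.90, 4.39 and 2.29. Of the 11 negative regulators, 10 were higher in LSD1 tumour 3 than in LSD1 tumour 2.

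All 5 measured chemokine genes were higher in LSD1 tumour 3 relative to the p53 tumour (background 58.1%), 3 of them by at least 2-fold (background 15.2%). In LSD1 tumour 2 they were divided, with 3 at least 2-fold lower (background 11.5%) and 2 at least 2-fold higher (background 11.7%). Ccl5, a product of activated T cells and NK cells as well as an interferon target, had scaled signals of 47.3, 7.95 and 70.1. Cxcl9 and Cxcl10, which draw T cells and were chosen after their values were seen, had 9.20 and 3.87 times the level of LSD1 tumour 2 in LSD1 tumour 3. The monocyte chemokine gene Ccl2 instead was high in both LSD1 tumours, at 0.278, 1.11 and 0.892. Ccl7 was not well above background in the p53 tumour, and its excess was at least 3.74-fold in LSD1 tumour 2 and at least 1.51-fold in LSD1 tumour 3.

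Markers of several cell types also differed between the tumours, and their part in the differences above was not tested. The order lowest in LSD1 tumour 2 and highest in LSD1 tumour 3 held for 7 of 8 erythroid markers (background 19.3%). Of the other lists, macrophages and monocytes had the most markers in that order, 3 of 10. T cells, B cells, neutrophils and endothelium had none. The share of all tested genes higher in LSD1 tumour 3 than in LSD1 tumour 2 was 55.8%. Of 8 erythroid markers, 8 were higher in LSD1 tumour 3 than in LSD1 tumour 2, and their summed scaled signals were 754 in the p53 tumour and 518 and 1035 in LSD1 tumours 2 and 3. Most of each sum came from Hba-a1, with 609, 415 and 686. Gene by gene the erythroid difference was wider: 7 of 8 markers were at least 2-fold above the p53 tumour in LSD1 tumour 3 (background 15.2%). The median there was 1.52 log2 units, and the median between the LSD1 tumours was 1.84. Both medians exceeded those of the 34 interferon response genes, 0.96 and 1.03, and were below those of the 5 GTPases, 2.25 and 2.94. Of 10 B cell markers, 8 were higher in LSD1 tumour 3 than in LSD1 tumour 2, with sums of 299.7, 42.8 and 152. Fcer2a among them was not well above background in LSD1 tumour 3. The sums put the erythroid list in the same order as the GTPases, and the B cell list in another.

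T cells and NK cells are known to make interferon gamma. Of 11 T cell markers, 2 were higher in LSD1 tumour 3 than in LSD1 tumour 2, and their sums were 81.4, 224 and 37.2. Cd8a and Cd8b1 were the 2 higher ones, by 1.54 and 2.08 log2 units. Both were highest in the p53 tumour, with differences from it of -1.94 and -1.81 log2 units in LSD1 tumour 3. Of 7 NK cell markers 4 were higher, with sums of 28.9, 23.9 and 6.96. Among the 4, the defining marker Ncr1 was not well above background in either LSD1 tumour, and Klre1 not in LSD1 tumour 2. The NK cell sums came mostly from Gzma, with 20.5, 20.6 and 4.40, and the median marker was 0.63 log2 units higher in LSD1 tumour 3 than in LSD1 tumour 2 and -2.24 relative to the p53 tumour. Of 9 plasmacytoid dendritic cell markers 5 were higher in LSD1 tumour 3 than in LSD1 tumour 2, with sums of 264, 179 and 228, and Klk1 was not well above background in LSD1 tumour 2. Macrophage and monocyte markers had 6 of 10 higher and sums of 255, 192 and 208. Conventional dendritic cell markers had 4 of 7 higher and sums of 13.4, 4.81 and 5.16. Xcr1, which was among the 4, and Cd209a were not well above background in the LSD1 tumours. Neutrophil markers had 2 of 8 higher and sums of 257, 402 and 366, and endothelial markers 5 of 7 and sums of 17.1, 9.76 and 13.2.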

How the data were processed

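Cy3-labelled RNA on 1-colour mouse arrays was quantified by Feature Extraction 11.5.1.1 (Agilent), as the headers and the submitters' processing notes name it. The deposited processed signal is a linear intensity that the software background-subtracted and detrended within each array, per the file headers. The authors' value table holds the same intensities times 1 factor per array, set on a basis not stated.

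Signals were divided by the array's 75th percentile (608, 712 and 554) and converted to log2. Spots marked as outliers were dropped before averaging each probe. Probes were named through the RefSeq table of GRCm38.p6 (25126 of 47837 identifiers matched), used for names only, since the array design is on mm9. A gene's brightest probe stood for it. Of 22908 genes, the 15240 whose probe was well above background on 1 array or more entered the test, with limma 3.58.1 in R 4.3.3 (Benjamini-Hochberg, threshold 0.05). A 2-fold difference required its brighter side well above background. With the dimmer side not well above background, "at least" folds put in its place either the dimmest detected level on that array or the probe's own level, whichever is higher. The fit was also run on simulated data with a common spread for all genes. That run does not show which differences the fit could detect in these arrays. The planned normexp alternative used the median signal, the files holding no mean signal. Alternatives were quantile normalization, another percentile, normexp (offset 50), the authors' value table, other filters, the mean over probes, slide as a block and leaving out a tumour.

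The members and gene lists were chosen with earlier results of these data known. Named genes were all members, Kdm1a and Trp53, fixed pathway genes, and the 3 genes of each pathway list with the largest mean difference of both LSD1 tumours from the p53 tumour.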

Additional observations from a re-analysis of the deposited data

How the results depend on the processing

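limma called 0 genes under each of the 8 settings in which it could be run, with 558 to 1756 genes at an unadjusted p under 0.05. Of the members, 2 had such a p without a filter on dim probes and 0 in the other 7 settings. The count of members 2-fold higher in both LSD1 tumours, 1 in the main analysis, was 0 with normexp, 0 with the percentile over probes above background on all arrays and 0 in the authors' value table. It was 17 with slide as a block, which leaves LSD1 tumour 3 against the p53 tumour, and ranged from 1 to 17 when a tumour was left out: 17 without LSD1 tumour 2. The count 2-fold lower in both, 0 in the main analysis, was 1 with quantile normalization, 1 with that other percentile and 1 in the authors' value table, and ranged from 0 to 3 when a tumour was left out, 3 without LSD1 tumour 3. With slide as a block or without LSD1 tumour 2, only LSD1 tumour 3 was counted, which had 17 members 2-fold higher in the main analysis too. Without LSD1 tumour 3, only LSD1 tumour 2 was counted, which had 3 members 2-fold lower in the main analysis. These counts are therefore of another measure. The shifts under the other settings were of 1 member each, and their cause was not tested. Members 2-fold apart between the LSD1 tumours numbered 13 to 17, and every member median kept its sign. No 2-fold difference of a single member changed sign under the 5 settings applied to single genes. Slide as a block, and leaving out a tumour, give no value for differences between the LSD1 tumours, and no test. No paired analysis was possible because the groups share no replicate number.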

Other observations

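Among 42 measured genes of a longer list of interferon-stimulated genes, 32 were higher in LSD1 tumour 3 than in LSD1 tumour 2, 11 of them by at least 2-fold, and 4 were at least 2-fold lower. All tested genes had shares of 55.8%, 14% and 11.1% for these counts. Relative to the p53 tumour, on the same slide, 26 of the 42 were higher in LSD1 tumour 3 (background 58.1%). At least 2-fold higher there were 7 (background 15.2%) and at least 2-fold lower 5 (background 11.5%), all near the background shares. Slfn3, a Schlafen family gene, was highest in LSD1 tumour 2, with scaled signals of 0.144, 0.748 and 0.305 in the p53 tumour and LSD1 tumours 2 and 3. Slfn4 of the same family, chosen after its values were seen, had 0.129, 0.662 and 0.126. Ifit1bl1, a relative of Ifit1, was not well above background in LSD1 tumour 2, where it was at least 5.96-fold below the p53 tumour. Lgals9 and Apol9b, chosen after their values were seen, were 2.12 and 2.15 log2 units above the p53 tumour in LSD1 tumour 3. Epsti1, chosen in the same way, was 1.53 log2 units below it.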
